A study of Rattus norvegicus with 4 samples.

Results

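The transcription factors described here were 9 genes of the neurogenic sequence of the cerebral cortex, namely Pax6, Sox2, Hes1, Eomes, Neurog2, Insm1, Neurod1, Neurod2 and Neurod6. Members were taken by name, as the rows of the deposited expression tables whose gene symbol equalled one of these 9, a rule that uses no expression value. By symbol 6 of the 9 were found, among 17419 rows listed in any library. The progenitor factors were found for 3 of 3 (Pax6, Sox2 and Hes1) and the factors of postmitotic neurons for 3 of 3 (Neurod1, Neurod2 and Neurod6). The factors of intermediate progenitors were found for 0 of 3, so Eomes, Neurog2 and Insm1 were not analysed here by symbol.

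In the developing cortex, radial glia are the progenitors that line the ventricle, and they carry Pax6 and Sox2. Notch signalling keeps them from differentiating through repressors of the Hes family, which hold proneural genes low. A proneural factor such as Neurog2 then starts a relay through Eomes and Insm1 in intermediate progenitors to the NeuroD family of basic helix-loop-helix (bHLH) activators in newborn and maturing glutamatergic neurons.

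The study asked whether exposure to bisphenol A (BPA) in the womb changes gene expression in the cortex of newborn rats. BPA is a compound of polycarbonate plastics and epoxy resins with oestrogen-like activity. RNA sequencing was done on frontal (prefrontal) cortex of Wistar rats (Wistar Furth in the study's methods) at postnatal day 1, with 1 library for each sex and treatment and therefore 4 libraries. The BPA group came from dams given 5000 µg BPA per kg maternal body weight every day from gestation day 1 to birth, and the control group from dams given the vehicle alone over the same days, both by oral gavage. The methods state that the meninges were stripped from the brain, and name several pups of each sex and treatment, from independent litters, for the profiling, but do not say whether the RNA of a library came from 1 pup or was pooled. With 1 library per sex and treatment, the male and the female library of a treatment served as its 2 replicates, so every p-value below measures only the spread between these libraries, and sex, litter and dissection cannot be told apart within it.

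Values were deposited as FPKM, fragments scaled to transcript length and to the mapped fragments of the library, which is a level per length and so can be compared between genes. The steps of the low values placed the depth at 8946840 to 9253250 fragments per library. The cortical neuron factor Tbr1 was abundant in every library, at 61.3 to 69.0 FPKM. The 5 of 6 choroid plexus markers that were listed summed to at most 2.67 FPKM in any library. The marker Ttr was not listed, so this sum leaves it out. Other markers differed between the treatments. The 13 markers of meninges and vessel wall summed to 528 and 673 FPKM in the control male and control female and to 236 and 162 in the BPA male and BPA female, and all 13 were lower in both BPA libraries, where 31.9% of all rows were. The 8 markers of olfactory bulb projection neurons summed to 48.9 and 52.5 FPKM in the controls against 14.9 and 11.4 after BPA. Most of that sum was Cdhr1, at 41.1 and 44.5 FPKM in the controls and 10.8 and 9.29 after BPA, while Tbx21 went from 1.74 and 0.85 to 0.01 and 0.05 FPKM and Doc2g from 0.38 and 0.31 to 0.69 and 0.47, the last 2 genes being named after their values were seen. The 14 markers of striatal projection neurons summed to 142 and 146 against 205 and 222, with 11 of the 13 tested higher in both BPA libraries, where 18.7% of all rows were. The part of these differences in the results on the neurogenic factors was not tested.

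The levels of the 6 factors followed one order in all 4 libraries. Hes1 was lowest, at 2.26 to 4.04 FPKM, followed by Pax6 at 4.79 to 6.65, Neurod1 at 8.17 to 10.4, Sox2 at 19.2 to 22.9, Neurod2 at 45.4 to 67.5 and Neurod6 at 216 to 255 FPKM. No pair of neighbours in this order overlapped in range across the 4 libraries. Neurod6 had a higher level than 98.4% to 98.6% of the rows of its library and Neurod2 than 89.2% to 93.1%, whereas Hes1 exceeded 33.7% to 42.7%. The 3 postmitotic factors together therefore reached 271 to 325 FPKM, against 26.3 to 33.2 FPKM for the 3 progenitor factors.

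**Figure D1:**
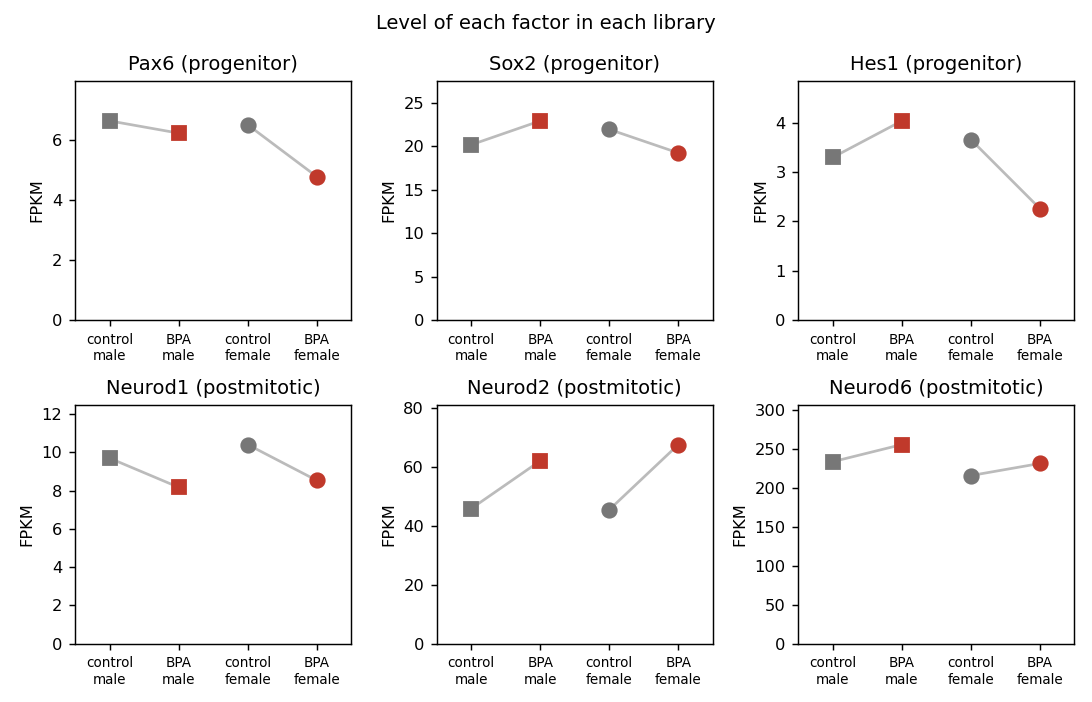
Level (FPKM, linear axis from 0, 1 panel per factor) of the 6 transcription factors with 1 point per library, grouped by sex with the control first, with a grey line joining the libraries of a sex. Neurod2 is the factor whose BPA points, at 62.0 and 67.5 FPKM, both lie above its control points, at 45.8 and 45.4, while for Pax6 and Neurod1 both BPA points lie below both controls.

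Neurod2 (NCBI Gene 54276), a NeuroD-family activator of maturing cortical projection neurons, was the factor with the clearest difference between the treatments. Its level was 45.8 FPKM in the control male, 45.4 in the control female, 62.0 in the BPA male and 67.5 in the BPA female, from 1419 to 2119 fragments per library. Both BPA libraries thus lay above both control libraries. The controls were within 0.83% of each other, closer than counting error resolves (female to male ratio interval 0.922 to 1.07). The BPA female was 8.88% above the BPA male (interval 1.02 to 1.16). Neurod2 was 35.4% higher in the male pair (ratio interval 1.27 to 1.45) and 48.6% higher in the female pair (interval 1.39 to 1.59). These intervals are exact 95% intervals on the ratio of 1 library to 1 and cover counting error only. With the sexes combined, Neurod2 rose after BPA by 0.50 on the log2(FPKM + 0.5) scale (SE 0.0665, 95% interval 0.34 to 0.66), with a Benjamini-Hochberg adjusted p of 0.0481 in limma. It was the 1 of 6 factors past the threshold of 0.05, beside 0.562% of the 13163 rows tested (74 rows, 0.106% higher and 0.456% lower). The call was narrow. It was lost without the control male (adjusted p = 0.160 in limma), the control female (0.220), the BPA male (0.104) or the BPA female (0.190), and also with a pseudocount of 0.1 (0.0527), without the filter on low values (0.149) and without a trend in the prior variance (0.177). With 1 library left out its group has 1 library, which is assumed to vary like the other group, and few rows passed at all, 0 to 17 (0 without the BPA female). The size of the difference stayed between 0.44 and 0.56 in all of these fits.

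Neurod6 (NCBI Gene 500137), the most abundant of the set and a marker of glutamatergic cortical neurons, was close to even. Its level was 233 FPKM in the control male, 216 in the control female, 255 in the BPA male and 231 in the BPA female, so that the BPA female lay below the control male and the groups overlapped. The counting interval of the ratio lay above 1 in both pairs, at 1.05 to 1.14 in males and 1.02 to 1.12 in females, but the control female was also 7.64% below the control male (interval 0.883 to 0.966), a difference of like size between libraries of 1 treatment. The combined difference was 0.11 on the log2 scale (95% interval −0.067 to 0.30) and did not pass the test (adjusted p = 0.462 in limma). It was 0.043 without the BPA male, 0.057 without the control female and 0.19 without the BPA female. As Neurod2 itself did not overlap between the groups, the ratio of the 2 levels is given as a description only, with Neurod6 at 5.10 and 4.75 times Neurod2 in the control male and female and at 4.12 and 3.43 times in the BPA male and female.

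Neurod1 (NCBI Gene 29458), which acts earlier in the relay as newborn neurons leave the cycle, differed in the opposite direction to Neurod2. It was measured at 9.69 FPKM in the control male, 10.4 in the control female, 8.17 in the BPA male and 8.53 in the BPA female. Both BPA libraries were below both controls, by 15.7% in the male pair and 18.0% in the female pair. Each of these ratios had a counting interval that included 1 (0.664 to 1.07 and 0.649 to 1.04). The combined log2 difference of −0.25 (SE 0.102, 95% interval −0.50 to −0.0042) did not pass the correction over all rows (unadjusted p = 0.0473, adjusted p = 0.281 in limma). Neurod2 stood at 4.72 and 4.36 times Neurod1 in the controls and at 7.58 and 7.91 times in the BPA libraries, a separation that follows from the values of both genes.

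The promoters of the 3 NeuroD genes are shown because the levels of Neurod2 and Neurod1 lay on opposite sides of the controls after BPA and because the NeuroD proteins bind the E-box, the hexamer CANNTG. Each window runs from 250 bases before to 50 bases after the gene's start in the RefSeq annotation of build GRCr8, and capitals mark every E-box. All 3 lie on the minus strand, Neurod2 at chr10:83824228-83824527, Neurod6 at chr4:86180106-86180405 and Neurod1 at chr3:84770405-84770704.
Neurod2: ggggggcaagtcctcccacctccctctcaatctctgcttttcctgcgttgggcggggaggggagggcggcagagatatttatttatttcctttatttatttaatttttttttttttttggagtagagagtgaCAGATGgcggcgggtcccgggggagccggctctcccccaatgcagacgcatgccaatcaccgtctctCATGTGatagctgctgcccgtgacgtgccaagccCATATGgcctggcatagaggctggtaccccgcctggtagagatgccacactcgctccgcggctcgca
Neurod6: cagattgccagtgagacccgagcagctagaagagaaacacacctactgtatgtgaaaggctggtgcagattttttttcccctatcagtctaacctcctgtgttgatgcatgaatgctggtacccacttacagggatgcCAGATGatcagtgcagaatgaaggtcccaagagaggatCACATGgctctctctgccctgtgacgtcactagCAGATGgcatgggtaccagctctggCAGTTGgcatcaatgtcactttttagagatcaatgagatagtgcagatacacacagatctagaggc
Neurod1: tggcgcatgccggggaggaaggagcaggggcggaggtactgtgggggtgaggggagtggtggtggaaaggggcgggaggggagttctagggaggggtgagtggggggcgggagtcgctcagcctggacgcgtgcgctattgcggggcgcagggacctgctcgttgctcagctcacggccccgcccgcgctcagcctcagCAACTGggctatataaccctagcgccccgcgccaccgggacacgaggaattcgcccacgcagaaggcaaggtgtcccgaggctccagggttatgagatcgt
Neurod2 held 3 E-boxes, Neurod6 4 and Neurod1 1. At least 1 E-box was found in 72.1% of 33469 rat promoters of the same length, whose median number was 1. The form CAGATG occurred in the windows of Neurod2 and Neurod6 and not in that of Neurod1. These matches describe letters and say nothing of binding in these libraries.

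Among the progenitor factors, Pax6 (NCBI Gene 25509), the homeodomain factor of cortical radial glia, was measured at 6.65 FPKM in the control male, 6.52 in the control female, 6.24 in the BPA male and 4.79 in the BPA female. Both BPA libraries were again below both controls, but the distance came largely from the BPA female. Pax6 was 26.5% lower in the female pair (interval 0.566 to 0.953) and 6.17% lower in the male pair (interval 0.736 to 1.18). The combined log2 difference was −0.25 (95% interval −0.62 to 0.13) and did not pass the test (adjusted p = 0.448 in limma), and it was −0.072 without the BPA female and −0.42 without the BPA male. In bulk tissue, fewer cells of a type and less RNA per cell cannot be told apart.

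Sox2 (NCBI Gene 499593), which maintains the progenitor state and is also kept in astrocytes, showed no common direction. Its level was 20.2 FPKM in the control male, 21.9 in the control female, 22.9 in the BPA male and 19.2 in the BPA female. The BPA libraries were thus the highest and the lowest of the 4, 13.6% above the control in males (interval 0.995 to 1.30) and 12.4% below it in females (interval 0.763 to 1.01). The means of 21.06 ± 1.25 FPKM in controls and 21.08 ± 2.61 after BPA (SD, n = 2 libraries each) were nearly equal, and limma gave a log2 difference of −0.0027 (95% interval −0.26 to 0.25, adjusted p = 0.991). The RefSeq annotation places a long non-coding RNA locus, LOC103691527, over Sox2. The tables list no row of that name, and whether the libraries keep strand was not given in the sources used here, so fragments of either transcript cannot be told apart.

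Hes1 (NCBI Gene 29577), the repressor that Notch signalling switches on in progenitors, had the widest spread. Its level was 3.30 FPKM in the control male, 3.66 in the control female, 4.04 in the BPA male and 2.26 in the BPA female, from 28 to 51 fragments per library. As for Sox2, the BPA male was highest and the BPA female lowest. Hes1 was 22.4% higher in the male pair (interval 0.797 to 1.89) and 38.3% lower in the female pair (interval 0.372 to 1.01). The combined log2 difference of −0.17 (95% interval −0.81 to 0.48) did not pass the test (adjusted p = 0.776 in limma) and turned to 0.19 without the BPA female. With so few fragments, neither pair ratio was resolved from 1.

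The Hes1 promoter is shown because Hes1 is the direct read-out of Notch among the 6 factors and is known to repress its own gene. In the GRCr8 window at chr11:84212996-84213295, minus strand, capitals mark the N-box CACNAG bound by Hes proteins and the core TGGGAA bound by RBPJ, the DNA-binding partner of Notch, each on either strand.
Hes1: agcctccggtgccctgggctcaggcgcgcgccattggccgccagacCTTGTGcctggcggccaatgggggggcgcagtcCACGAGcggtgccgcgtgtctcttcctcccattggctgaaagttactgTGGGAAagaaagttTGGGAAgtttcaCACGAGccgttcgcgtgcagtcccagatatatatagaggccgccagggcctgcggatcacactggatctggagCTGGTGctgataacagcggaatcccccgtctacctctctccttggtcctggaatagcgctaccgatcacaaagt
The window held 4 N-boxes and 2 RBPJ cores, none of which overlapped another. An N-box was found in 43.12% of the promoters and an RBPJ core in 25.68%, and 99.65% of promoters held fewer N-boxes than Hes1. Of the 9 genes asked for, 8 had a promoter in the table.

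Set against all rows of the tables, the counts were small. Both BPA libraries lay above both controls for 1 factor (Neurod2), where 18.7% of all rows did, and below both for 2 (Pax6 and Neurod1), where 31.9% did. In the male pair no factor reached an absolute log2 ratio of 0.5, the background being 11.4% of rows. In the female pair Neurod2 at 0.57 and Hes1 at −0.59 did so, against 14.4%. The counting interval lay above 1 for 2 factors in males and for the same 2 in females (Neurod2 and Neurod6), where 14.0% and 13.6% of rows did. It lay below 1 for 1 factor in females (Pax6), where 22.7% of rows did. The median of the 6 combined log2 differences was −0.085, and that of all rows tested was −0.042. Among rows with an NCBI Gene ID alone, 4.49% of 10632 passed the limma fit (0.696% higher and 3.79% lower), and Neurod2 was again the 1 factor that did (adjusted p = 0.00437).

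**Figure D2:**
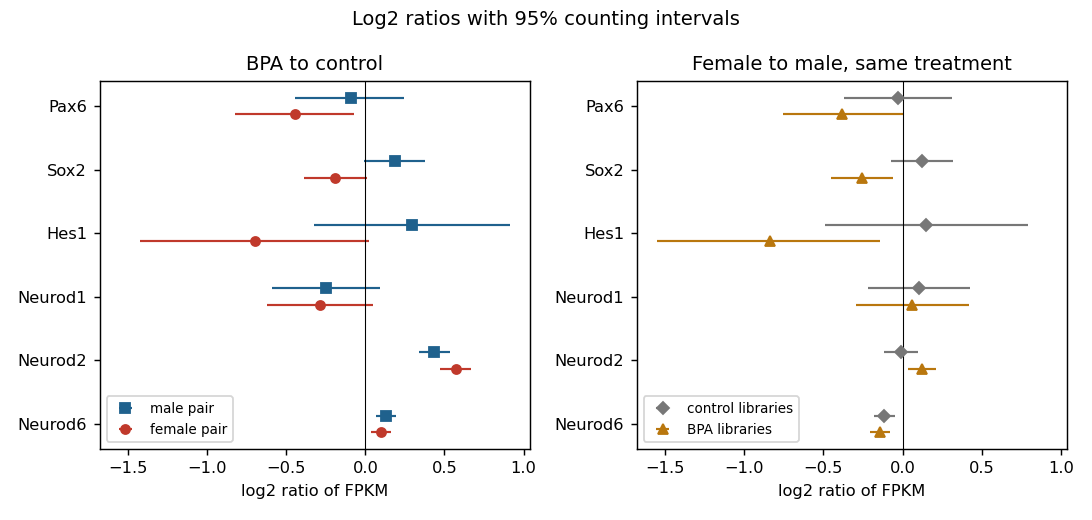
Ratio of FPKM between 2 libraries (log2 axis) for each factor in the male and female BPA to control pairs and, for scale, in the female to male pairs within a treatment, with exact 95% counting intervals as bars. Neurod2 lies to the right of 0 in both BPA to control pairs, and Sox2 and Hes1 lie on opposite sides of 0 in the male and the female pair.

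The male and the female pair moved in opposite directions for 2 of the 6 factors, Sox2 and Hes1, beside 33.5% of all rows. On plain fragment counts scaled to depth, with no pseudocount, the female log2 ratio minus the male one was −0.38 for Sox2 (counting interval −0.65 to −0.10) and −0.98 for Hes1 (−1.88 to −0.083), and such an interval excluded 0 for 21.2% of rows. For Pax6 the difference was −0.34 (−0.84 to 0.15) and for Neurod2 it was 0.13 (−0.0033 to 0.27), both within counting error. The BPA female was also the lowest library for each of the 3 progenitor factors, and was lower than the BPA male by 23.2% for Pax6, 16.1% for Sox2 and 44.1% for Hes1. Over its own rows it also had the lowest median level, 5.91 FPKM. The median was 6.05 in the BPA male, 6.43 in the control male and 6.52 in the control female. The share of all rows for which the BPA female was lowest was not counted. In the controls, the female was 1.95% lower than the male for Pax6 and 8.78% and 10.9% higher for Sox2 and Hes1. With 1 library per sex and treatment, an effect of sex and a property of the BPA female library cannot be told apart.

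**Figure D3:**
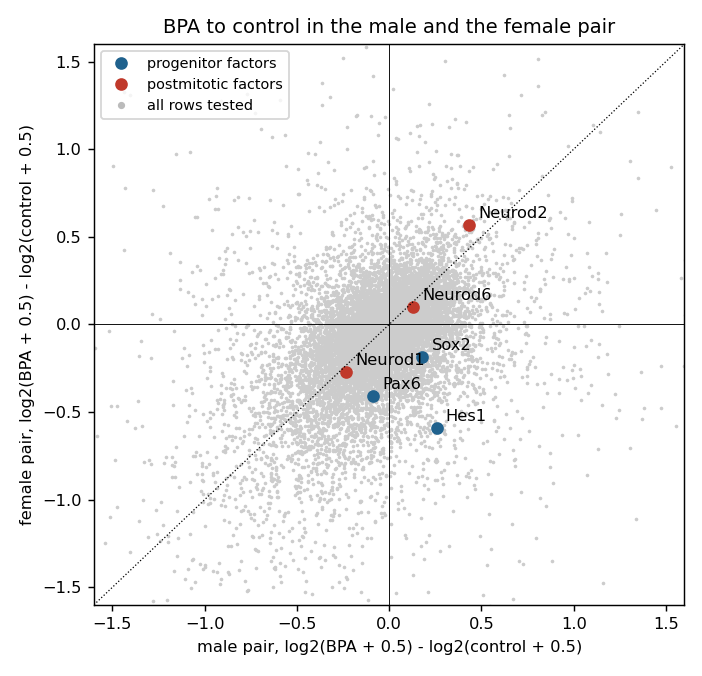
Log2 ratio of BPA to control on the log2(FPKM + 0.5) scale in the male pair (horizontal axis) and in the female pair (vertical axis) for all rows tested, in grey, with the 6 factors named; 338 rows lie beyond the axes. Neurod2 lies at 0.43 and 0.57, at the upper right of the factors, and Hes1 at 0.26 and −0.59 lies farthest from the diagonal.

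The balance of the progenitor and postmitotic factors followed from these values. The mean log2(FPKM + 0.5) of Pax6, Sox2 and Hes1 minus that of Neurod1, Neurod2 and Neurod6 was −2.54 in the control male, −2.53 in the BPA male, −2.46 in the control female and −2.98 in the BPA female. The BPA female alone stood apart. The BPA minus control difference of this balance was 0.0076 in males and −0.53 in females, and within the BPA group the female stood 0.45 below the male. In the male pair the higher Neurod2 was offset by the lower Neurod1 and by the higher Sox2 and Hes1, and without Neurod1 the differences were −0.16 in males and −0.73 in females. The ratio of Neurod2 to Sox2 was 2.27 and 2.07 in the control male and female and 2.70 and 3.51 in the BPA male and female, and that of Neurod2 to Pax6 was 6.88 and 6.96 against 9.93 and 14.1. Neither ratio overlapped between the groups, but both contain Neurod2, which itself did not overlap.

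Around these factors, 4 lists of related genes were examined, 105 genes in all, of which 88 were listed in all 4 libraries and 77 were abundant enough to test. In limma over all rows none of the 77 passed the threshold (lowest adjusted p = 0.0538, 20 at an unadjusted p under 0.05, beside 17.3% of all rows), while in the fit over rows with an NCBI Gene ID 6 were higher and 1 lower (7.79% and 1.30%, beside 0.696% and 3.79% of all rows in that fit). With sex as a block, 1 of the 77, Id2, passed over all rows, beside 0.653% of them. Their median log2 difference was 0.056, and 23 (29.9%) had both BPA libraries above both controls and 23 (29.9%) below, where 18.7% and 31.9% of all rows did. In what follows, shares of a list above or below in both BPA libraries are to be read against these 2 shares of all rows.

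The 25 tested genes of the Notch pathway, the receptors, ligands and targets upstream and beside Hes1, showed no common direction, with a median of −0.014, 3 (12%) above and 8 (32%) below in both BPA libraries and none called in either fit. The ligand-like gene Dll3 had the highest difference, at 0.20, from 1.21 and 1.76 FPKM in the control male and female to 1.57 and 1.95 in the BPA male and female. The effector Hey2 had the lowest, at −0.71, from 3.80 and 2.89 to 1.75 and 1.93 (adjusted p = 0.198 in limma). Hes5, another Notch-driven repressor of radial glia, named after its values were seen, ranged from 1.09 FPKM in the control male to 3.41 in the control female, with the BPA libraries at 1.90 and 1.84 between them.

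Among the 13 tested bHLH and Id factors, 2 (15.4%) were above and 7 (53.8%) below in both BPA libraries, with a median of −0.11. Id2 and Id3, which both block bHLH activators by binding their E-protein partners, lay at the opposite ends. Id2 was measured at 145 and 136 FPKM in the control male and female and at 191 and 173 in the BPA male and female, a log2 difference of 0.37. Id3 was at 28.9 and 31.6 FPKM in the controls and at 21.7 and 20.1 after BPA, a log2 difference of −0.52. The groups did not overlap for either gene. Over all rows their adjusted p-values in limma were 0.0960 and 0.0664, and over rows with an NCBI Gene ID 0.0202 and 0.00908. With sex as a block over all rows, Id2 passed the threshold (adjusted p = 0.0425 in limma) and Id3 did not (0.0721).

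Of the 19 tested progenitor transcription factors outside the 9, 9 (47.4%) were above and 5 (26.3%) below in both BPA libraries, and the median was 0.12. Lhx2, a selector of cortical identity, was the highest at 0.49, with 21.3 and 21.1 FPKM in the control male and female and 29.1 and 30.6 in the BPA male and female (adjusted p = 0.0538 in limma over all rows, 0.00875 over rows with an NCBI Gene ID). Nfix and Pou3f3, named after their values were seen because they also passed the second fit, were higher by 0.37 and 0.36 (adjusted p = 0.0320 and 0.0190 in limma). Both continue to be expressed in neurons. Tfap2c was the lowest of the list at −0.91, from 2.04 and 1.79 FPKM in the control male and female to 0.81 and 0.76, so that it passed the filter of 1 FPKM through the controls alone.

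The 20 tested factors of neuronal differentiation had a median of 0.13, with 9 (45%) above and 3 (15%) below in both BPA libraries. St18 was highest at 0.55, from 0.65 and 0.88 FPKM to 1.35 in both BPA libraries, its mean passing the filter of 1 FPKM through the BPA libraries alone, and Btg2, an antiproliferative gene of neurogenic divisions, was lowest at −0.62, from 5.46 in both controls to 3.90 and 2.90. Sox4, also named after its values were seen, passed the second fit with a difference of 0.30 (adjusted p = 0.0404 in limma). The layer factor Tbr1, also named after its values were seen, differed by 0.064 and passed neither fit.

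**Figure D4:**
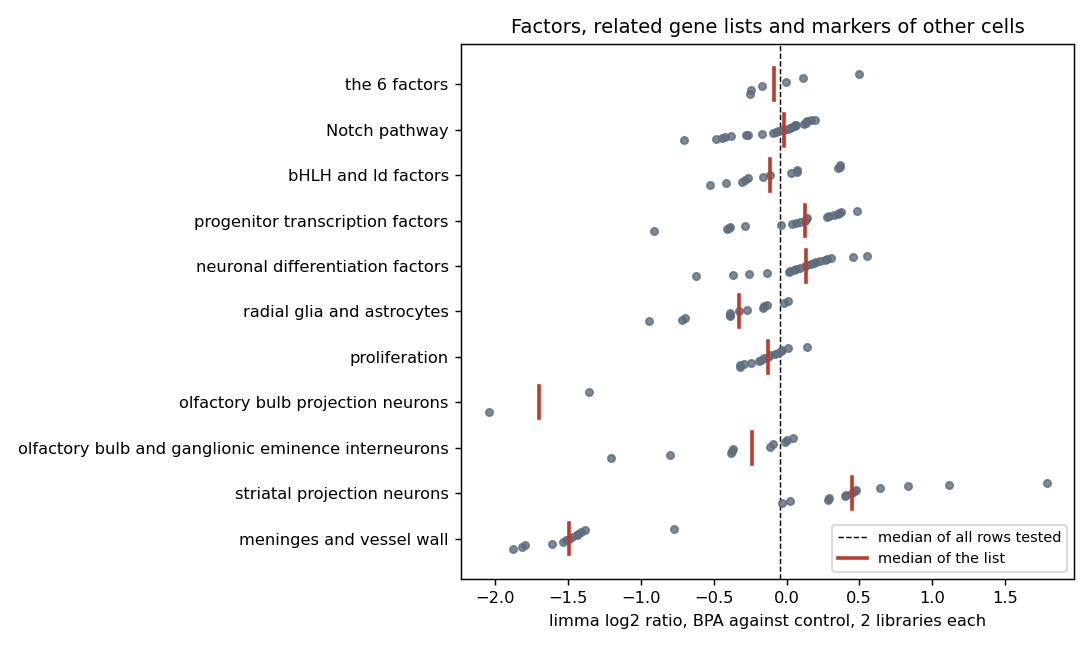
Log2 difference of BPA from control, sexes combined, on the log2(FPKM + 0.5) scale for each tested gene of the 6 factors, the 4 related lists and the marker lists, 1 point per gene with the median of each list as a bar. The 6 factors and the 4 related lists centre between −0.11 and 0.13, whereas the 13 markers of meninges and vessel wall centre at −1.50.

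Markers of the cells that carry the progenitor factors were set beside them. Of the 13 radial glia and astrocyte markers, 9 (69.2%) were below the controls in both BPA libraries, beside 31.9% of all rows, and none above, with a median of −0.32. They summed to 1117 and 1155 FPKM in the control male and female and to 981 and 861 in the BPA male and female. None passed limma over all rows, and 5 (Slc1a3, Slc1a2, Gfap, Aqp4 and Gja1) were lower over rows with an NCBI Gene ID, where 3.79% of rows were. Gja1, the astrocyte connexin, was the lowest at −0.95, and the same gene is also abundant in meninges. The 15 proliferation markers summed to 168 and 165 FPKM in controls and to 160 and 150 after BPA, with 6 (40.0%) below and none above in both BPA libraries, a median of −0.13 and none called. The lowest sum of both lists was in the BPA female. That library was also lowest for Pax6, Sox2 and Hes1, and had the lowest median level over its own rows. The part of these marker levels in the progenitor factors was not tested.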

How the data were processed

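The authors sequenced poly(A)-selected RNA from 4 libraries and deposited 1 table of FPKM per library, rounded to 2 decimals, none below 0.01. The submitters' processing notes name HISAT, Bowtie2, RSEM and the rat build rn6. RSEM divides fragments that match several transcripts, so the FPKM of related genes are estimates. No counts were used here. Tables were joined by gene (17419 rows in any library, 16182 in all 4), and depth was estimated from the steps of low FPKM values, from which the counting intervals (Clopper-Pearson, 95%) were made. Between 85.2% and 87.1% of scarce rows then came within 0.1 of a whole fragment, and a test on simulated data returned the depth within 0.0042%. Intervals and depths cover counting error only.

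The comparison of treatments used limma 3.58.1 in R 4.3.3 on log2(FPKM + 0.5), with a trend in the prior variance, over the 13163 rows with a mean FPKM of at least 1, all 4 libraries and no covariate, since the study combined the sexes. P-values were adjusted by the Benjamini-Hochberg method over all rows tested, at a threshold of 0.05. All 6 factors passed the filter. A fold change on this scale understates that of low genes. On simulated data given the same spread in every row, 100 of 100 changes of log2 1 were recovered. So were 100 of 100 of log2 2, with 16 unchanged rows called. The fitted errors of the real rows were unequal, with an SE of 0.0665 for Neurod2 and 0.265 for Hes1. Recovery at the wider spread of low genes was therefore not tested. The study compared the treatments by a Poisson distribution, with the sexes combined and in each sex, and that test, which carries no spread between replicates, was not used. Pairs of single libraries were compared by log2 ratio, with no test. The labels give no replicate numbers, and sex as a block was an alternative: the deviations of same-sex libraries correlated at 0.0297 over all rows tested and at 0.19 over rows with an NCBI Gene ID.

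The members and gene lists were chosen with earlier results of these data known. From each list of related genes the text names those past the threshold, at most 4, or otherwise the highest and the lowest, and other names of list genes are marked as chosen after their values were seen. Some list genes are not reported here. Alternatives changed the pseudocount, the filter, the rows entered, the prior variance, the scaling, the block and the libraries. Promoters came from RefSeq, build GRCr8, and no coordinates of the files' build were used. Python 3.11.15, pandas 2.3.3, scipy 1.17.1 and matplotlib 3.10.9 were used for joins, intervals and plots.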

Additional observations from a re-analysis of the deposited data

Results flagged for a closer look

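For 2 of the 6 factors the BPA to control ratio differed between the sexes beyond counting error, as it did for 21.2% of 12659 rows. On plain fragment counts scaled to depth, with no pseudocount, the female log2 ratio minus the male one was −0.98 for Hes1 (−0.983203) and −0.38 for Sox2 (−0.375706), the BPA male being above and the BPA female below its control in both. Each value rests on 4 single libraries, so the spread between animals of one sex and treatment is not in the interval, and the difference was not tested against it.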

How the results depend on the processing

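The number of rows past the limma threshold was 74 and depended on the settings. It was 0 with no filter on low values (2628 at an unadjusted p under 0.05), 164 at a mean FPKM of at least 5, 477 over rows with an NCBI Gene ID, 0 without a trend in the prior variance (2055 unadjusted) and 0 to 17 with 1 library left out (0 without the BPA female, 1924 unadjusted). The log2 difference of Neurod2 was 0.50 with an adjusted p above 0.05 at a pseudocount of 0.1 (0.503), with no filter (0.50) and without the trend (0.50), and 0.439 to 0.561 with 1 library left out. That of Sox2 turned to 0.0384 after median scaling and ran from −0.126 to 0.121 with 1 library left out (0.0565 without the control female, 0.121 without the BPA female), and that of Hes1 ran from −0.527 to 0.191 (0.191 without the BPA female). Hes1 could not be tested at a mean FPKM of at least 5. Median scaling moved the median of all rows from −0.042 to −0.0019. With the replicate block by sex, 86 rows passed and Neurod2 had an adjusted p of 0.0425 in limma; the block changed no call among the 6 factors, but Id2 passed with it. The rows past the fold, 1501 in the male pair and 1891 in the female pair, became 2451 and 2946 with no filter, 405 and 529 at a log2 ratio of 1, and 4344 and 4504 at 0.25. Of the pair ratios, 36 of 36 stayed within their counting interval at other pseudocounts and scalings. The cause of these changes was not tested. Depth limits Hes1 most, with 28 to 51 fragments per library.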

Other observations

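Rows that the tables hold without a gene symbol gave values for intermediate progenitor factors. A row assembled from the reads and named Neurog2 by orthology was at 0.35 and 0.33 FPKM in the control male and female and at 0.40 and 0.23 in the BPA male and female, from 9 to 16 fragments. A row whose protein match was Insm1, of 793 bases, was at 1.55 and 4.70 FPKM in the controls and 2.47 and 2.38 after BPA. Another Insm1 match of 6704 bases was at 4.23 and 4.03 against 5.14 and 5.59 FPKM, with both BPA libraries higher, but its orthology entry names a collagen, so its identity is uncertain. No such row named Eomes.

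The 7 microglia markers summed to 34.99 and 37.08 FPKM in the control male and female and to 33.3 and 24.4 in the BPA male and female. The 7 oligodendrocyte lineage markers summed to 103 and 115 against 91.8 and 95.4, and the 7 of 8 blood markers that were listed to 1604 and 1499 against 1529 and 1248. Markers of interneurons of the olfactory bulb and ganglionic eminence summed to 300 and 295 FPKM in the controls and 262 and 249 after BPA, and 4 of the 10 tested were lower over rows with an NCBI Gene ID, where 3.79% of rows were. Of these Calb2 was also lower over all rows by limma, from 40.0 and 34.0 to 17.2 and 14.4 FPKM (log2 difference −1.20, adjusted p = 0.0274).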
